A study of Mus musculus with 27 samples.

Results

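Presynaptic and secretory vesicle genes were examined in the optic stalk, the tube that joins the embryonic eye cup to the brain and later becomes the optic nerve. The set holds 9 genes taken by name from the 55487 genes of the count table: Snap25, Syt1, Syt4, Syt11, Syp, Sv2a, Vamp2, Unc13c and Chgb. The libraries came from 4 control and 5 Smarcc1-DCT-cKO mouse embryos at embryonic day 14, kept on a C57Bl6/J background. Laser capture took a dorsal piece, a ventral piece and a piece rich in retinal ganglion cell axons from each stalk, and Geo-seq profiled the RNA of the 27 pieces. The mutants were Baf155 loxP/loxP; Dct-Cre; Z/EG, in which Cre driven by the pigment gene Dct deletes Smarcc1 (Baf155) and switches on a green fluorescent reporter. The controls were littermates without Dct-Cre. Per the study's reporter, Dct-Cre is active in the pigmented lineages, the ciliary margin and the stalk, and in only part of the optic disc cells. Whether the neurons that sent the axons carried the deletion was not tested here. The labels place 1 control and 3 mutant embryos in batch A, and 3 control and 2 mutant embryos in batch B.

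A presynaptic terminal releases transmitter when a vesicle docks, is primed and fuses with the plasma membrane. SNARE proteins such as Snap25 and Vamp2 drive fusion, synaptotagmins sense calcium or regulate release, and Unc13 proteins prime docked vesicles. Dense-core granules carry peptides and granins, of which chromogranin B (Chgb) is one. Neurons use these genes most, but glial and endocrine cells also secrete through related machinery. At this age the axons of retinal ganglion cells pass through the stalk on their way to the brain, and their cell bodies lie in the retina.

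The levels below are CPM, the reads of a gene scaled to the same total in every library. Totals were 10899418 to 33980417 counts, so that 1 read was worth 0.0294 to 0.0917 CPM. A level was called measured above 3 counts, and a count of 0 allows a level of up to 3 counts. The libraries had 9225 to 16810 genes with a count, with the lowest numbers in the axon mutants (9225 to 11358). Mitochondrial genes took 8.64 to 15.4% of counts in axon controls and 7.49 to 12.2% in axon mutants, against 3.72 to 7.63% in the dorsal and ventral libraries. The targeted gene Smarcc1 had 75.9 to 289 CPM in dorsal controls and 2.26 to 107 CPM in dorsal mutants, which overlapped. It had 75.7 to 198 CPM in ventral controls against 14.7 to 64.4 CPM in ventral mutants, and 50.1 to 242 CPM in axon controls against 1.86 to 44.9 CPM in axon mutants.

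The axon label held against its markers. The neurofilament gene Nefm had 767 to 1757 CPM in the 9 axon libraries and 0.0707 to 212 CPM in the others, and Map1b, a microtubule protein of growing axons, had 1316 to 3415 CPM against 203 to 905 CPM. The 15 neuron and axon markers summed to 3101 to 6298 CPM in axon libraries and to 305 to 2435 CPM elsewhere. Tubb3, a tubulin that marks young neurons, reached at most 34.6 CPM in axon controls and 0.133 CPM in axon mutants, and Elavl4, an RNA-binding protein of neuronal cell bodies, was at or near 0 in all 9 axon libraries. The axon pieces also held RNA of optic stalk and astrocyte progenitors (9 markers, 1693 to 4280 CPM in sum), mesenchyme (10 markers, 390 to 2526 CPM) and red blood cells (8 markers, 609 to 33104 CPM). In such bulk pieces fewer cells of a type and less RNA per cell cannot be told apart.

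Over the 27 libraries the members differed in level. Per kilobase of exon, Vamp2 was the most abundant at a mean of 6.09 CPM per kb, followed by Syt4 at 4.10, Snap25 at 3.75, Chgb at 3.48, Syt1 at 2.54, Unc13c at 1.75, Syp at 0.846 and Sv2a at 0.659 CPM per kb. Neighbours in this order lay well within the spread between libraries, since the SD of each member except Vamp2 exceeded its mean (Vamp2, 23.2 ± 20.7 CPM; Syt4, 15.9 ± 59.5 CPM; SD, n = 27). Single libraries made much of some means: the highest library held 71.8% of the summed Syt4 level, 47.2% of that of Snap25 and 35.7% of that of Chgb. Syt11, a synaptotagmin that does not bind calcium, was near the floor everywhere, with 13 counts in all, 0 counts in 19 libraries and above 3 counts in 1. It alone did not pass the filter on low counts, so that 8 members were tested.

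**Figure D1:**
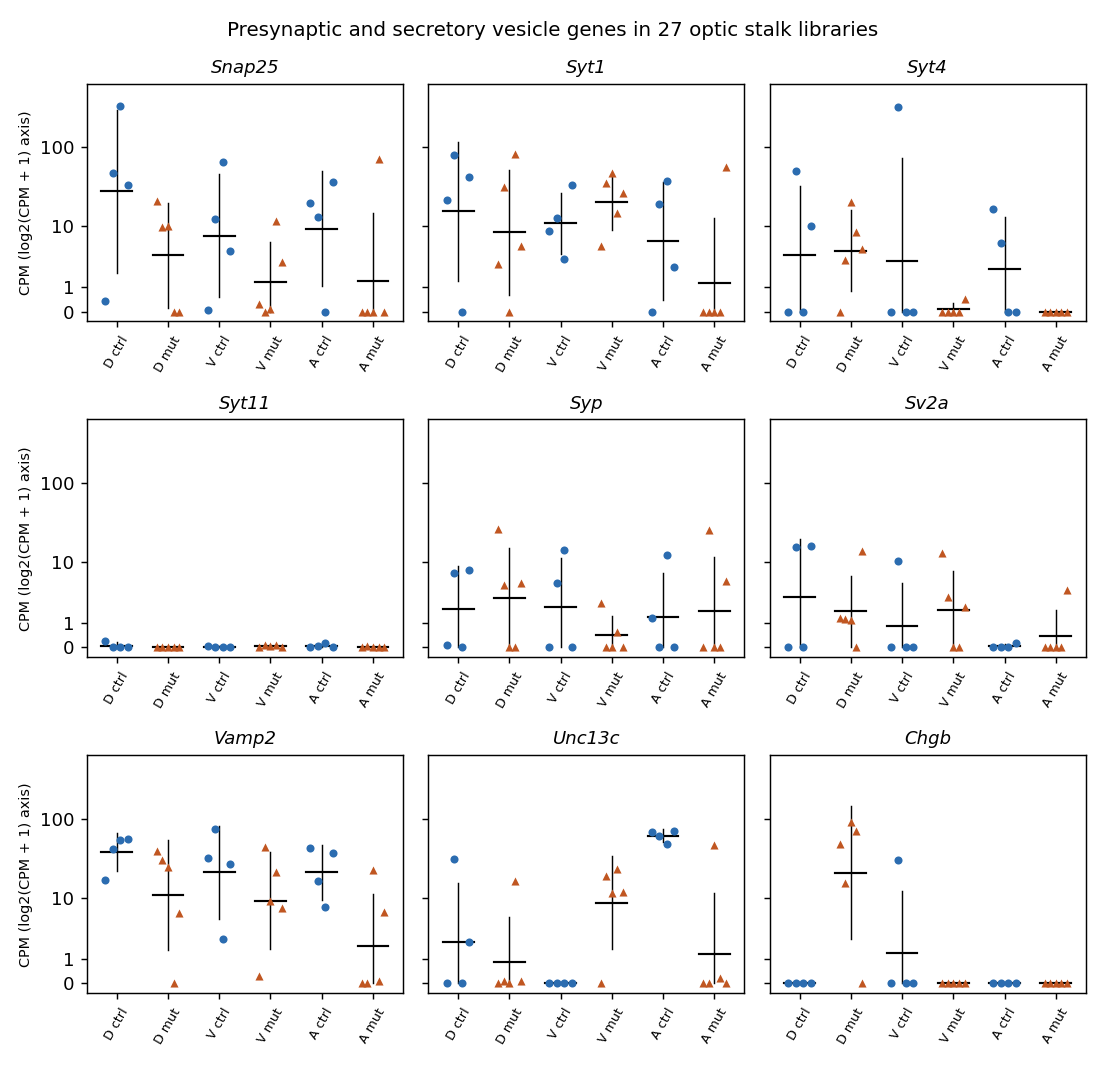
CPM of the 9 vesicle genes in each library, on a log2(CPM + 1) axis, for dorsal (D), ventral (V) and axon (A) pieces of control (blue circles) and mutant (orange triangles) embryos. Bars give the mean and SD of log2(CPM + 1), drawn down to 0 at most. Most groups hold libraries at 0 beside libraries at 10 CPM or more, whereas the 4 axon controls of Unc13c lie together at 48.7 to 71.5 CPM.

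Vamp2 (synaptobrevin 2, the vesicle SNARE; chromosome 11, 69088490 to 69092384, plus strand, mm10) was above 3 counts in 23 of 27 libraries, the most of any member. Its 4 dorsal controls had 17.0, 42.6, 54.5 and 55.9 CPM and its 5 dorsal mutants 39.6, 30.7, 24.9, 0 and 6.11 CPM. Its ventral controls had 32.5, 74.8, 2.51 and 27.3 CPM and its ventral mutants 0.237, 45.4, 9.03, 21.6 and 7.35 CPM. The axon controls had 43.8, 16.5, 7.57 and 37.2 CPM and the axon mutants 0, 0, 22.7, 0.0584 and 6.34 CPM. The mutant mean was below the control mean in each region, 20.3 ± 16.7 against 42.5 ± 18.0 CPM dorsally, 16.7 ± 17.8 against 34.3 ± 30.0 CPM ventrally and 5.82 ± 9.83 against 26.3 ± 17.1 CPM in axons (SD, n = 5 and n = 4), with overlap in all 3. An exact permutation test of the axon difference gave p = 0.0635 (two-sided, adjusted p = 0.429).

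Snap25 (the plasma membrane SNARE; chromosome 2, 136713453 to 136782428, plus strand) was detected more patchily, above 3 counts in 17 libraries. Its dorsal controls had 0.333, 47.5, 324 and 34.1 CPM and its dorsal mutants 21.5, 9.66, 10.1, 0 and 0 CPM. Its ventral controls had 0.0511, 12.3, 65.7 and 4.41 CPM and its ventral mutants 0.237, 0, 0.0883, 11.6 and 3.0 CPM. In axon controls it had 20, 13.1, 0 and 36.8 CPM, and in axon mutants 72.3 CPM in 1 library and 0 in the other 4. Each pair of groups overlapped, and the dorsal control with 324 CPM made most of the dorsal control mean of 102 ± 150 CPM (SD, n = 4). That library also held 10185 CPM of the 10 mesenchyme markers and 24343 CPM of the red blood cell markers, the highest sums among the dorsal libraries, and 152 CPM of Tubb3 and 70.8 CPM of Elavl4. The part of these cells in the Snap25 level was not tested. Apart from Snap25 and Vamp2 it had 0 counts of every member.

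Among the synaptotagmins, Syt1 (the calcium sensor of fast release; chromosome 10, 108497650 to 109010982, minus strand) was above 3 counts in 20 libraries. Dorsal controls had 21.7, 79.3, 0 and 42.7 CPM and dorsal mutants 2.84, 31.9, 0, 81.4 and 5.38 CPM. Ventral controls had 8.53, 12.9, 3.43 and 33.9 CPM and ventral mutants 5.35, 36.0, 47.7, 15.1 and 26.7 CPM, so that all 9 ventral libraries held it. Axon controls had 0, 19.3, 38.0 and 2.52 CPM, and axon mutants 56.9 CPM in 1 library and 0 in the other 4. The ventral stalk was the region in which Syt1 was measured in every embryo of both genotypes.

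Syt4 (a synaptotagmin of secretory and dense-core vesicles; chromosome 18, 31437808 to 31447406, minus strand) was at 0 in 17 libraries. Dorsal controls had 0, 50.9, 0 and 9.96 CPM and dorsal mutants 0, 3.22, 20.9, 8.34 and 4.85 CPM. One ventral control had 309 CPM and the other 3 had 0, and the ventral mutants had 0 in 4 libraries and 0.429 CPM in 1. Axon controls had 17.0, 5.95, 0 and 0 CPM and all 5 axon mutants 0. Of its exon bases 14.5% are shared with Gm26658, so its reads cannot be fully separated from that gene's.

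The ventral control with 309 CPM of Syt4 (replicate 2) was also the ventral control with the most Vamp2, Sv2a and Chgb, and it had 7 members above 3 counts against 2 to 4 in the other ventral controls. It held 391 CPM of Tubb3, against 0 to 2.24 CPM in the other 3, and 103 CPM of Elavl4, against 0 to 39.8 CPM. The dorsal control of the same embryo had 249 CPM of Tubb3 and 7 members above 3 counts. Dorsal control replicate 4 also had 7 members above 3 counts, at 169 CPM in sum, with Tubb3, Stmn2, Elavl3, Elavl4 and Dcx all at 0. Other neuron and axon markers were present in it, with Gap43 at 13.2 CPM, Nefm at 11.2 CPM and Map1b at 319 CPM. All 15 of these markers summed to 400 CPM there. The part of neuronal cell bodies in the levels was not tested.

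Of the vesicle membrane proteins, Syp (synaptophysin; chromosome X, 7638471 to 7653256, plus strand) was above 3 counts in 13 libraries and never above 26.6 CPM. Dorsal controls had 0.0832, 7.01, 0 and 7.81 CPM and dorsal mutants 26.6, 4.83, 0, 0 and 5.05 CPM. Ventral controls had 0, 5.03, 14.6 and 0 CPM and ventral mutants 2.46, 0, 0, 0.558 and 0 CPM. Axon controls had 1.28, 0, 12.4 and 0 CPM and axon mutants 0, 26.0, 0, 0 and 5.37 CPM. Every group held libraries at 0, and the 4 highest libraries belonged to 4 different groups. Gm14703 shares 16.8% of its exon bases. Sv2a (a transporter-like glycoprotein of the vesicle membrane; chromosome 3, 96181151 to 96195521, plus strand) was above 3 counts in 11 libraries. Dorsal controls had 0, 15.8, 0 and 16.2 CPM and dorsal mutants 1.28, 1.19, 1.13, 0 and 13.9 CPM. Ventral controls had 0, 10.3, 0 and 0 CPM and ventral mutants 13.3, 3.13, 0, 0 and 2.08 CPM. Axon controls had 0, 0, 0 and 0.137 CPM and axon mutants 4.04 CPM in 1 library, the one axon library above 3 counts, and 0 in the other 4. Within embryos Sv2a was lower in the axon piece than in the dorsal piece in 6 of 9 embryos and higher in none. An exact permutation test by sign flips gave p = 0.0312 (two-sided) and an adjusted p of 0.482 over 27 tests.

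Unc13c (Munc13-3, a vesicle priming protein; chromosome 9, 73479422 to 73968966, minus strand) had the most regular pattern of the set. All 4 axon controls held it, at 69.0, 62.2, 48.7 and 71.5 CPM. The axon mutants had 0, 0, 47.8, 0.175 and 0 CPM, so that 4 of 5 were at or below 3 counts, and the highest mutant lay just below the lowest control. The 4 ventral controls were at 0 and the ventral mutants had 0, 19.4, 11.5, 23.8 and 11.8 CPM. Dorsal controls had 0, 31.6, 0 and 2.15 CPM and dorsal mutants 0, 0.0596, 0, 16.4 and 0.0665 CPM, with full overlap. The mean was 62.9 ± 10.2 CPM in axon controls against 9.60 ± 21.4 CPM in axon mutants (SD, n = 4 and n = 5). Between these groups batch A held 69.0 CPM in its control against 0, 0 and 47.8 CPM in its mutants, and batch B held 48.7 to 71.5 CPM in its controls against 0.175 and 0 CPM in its mutants. The 15 neuron and axon markers summed to 3101 to 4120 CPM in the axon controls and to 3837 to 6298 CPM in the axon mutants, with overlap between the genotypes. Map1b and Nefm made most of these sums. Map1b had 1316 to 2165 CPM in axon controls and 1822 to 3415 CPM in axon mutants. Nefm had 767 to 1253 and 803 to 1757 CPM. Not every marker followed them. Stmn2 had 95.7 to 254 CPM in axon controls and 0 to 288 CPM in axon mutants. Gap43 had 50.7 to 199 and 0 to 198 CPM. Melanin-bearing cell markers had a median sum of 60.6 CPM in axon controls (13.7 to 558 CPM) and 840 CPM in axon mutants (3.91 to 1237 CPM), and endothelial markers 77.5 CPM (3.49 to 164 CPM) and 363 CPM (0.0584 to 391 CPM). Red blood cell markers had median sums of 4402 and 8252 CPM, and stalk and astrocyte progenitor markers of 2438 and 1989 CPM. The part of these cells in the Unc13c level was not tested.

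Of 7 RefSeq promoter windows of members that were examined, only 1 lay outside the span of its own gene in GENCODE. It is that of Unc13c, so the sequence before the start of Unc13c is shown. RefSeq (GRCm38.p6) gives the 250 bases upstream as chr9:73969038-73969287 on the minus strand, which lie outside the transcripts annotated for the gene in GENCODE. The capitals mark the one CAGCTG, an E-box, the motif of basic helix-loop-helix factors, 13 bases before the start. Other forms of the E-box were not searched for, and the window also holds CACCTG, left in lower case.

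Unc13c: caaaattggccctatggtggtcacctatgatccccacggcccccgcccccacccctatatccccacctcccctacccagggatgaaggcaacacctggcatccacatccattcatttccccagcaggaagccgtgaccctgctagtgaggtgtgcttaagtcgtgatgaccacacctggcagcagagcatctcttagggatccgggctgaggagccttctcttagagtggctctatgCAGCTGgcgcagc

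The motif CAGCTG reads the same on both strands and was searched for with the sequence in view. It was found in 13.0% of the 32851 RefSeq promoter windows of this length. The match is a description of these letters.

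**Figure D2:**
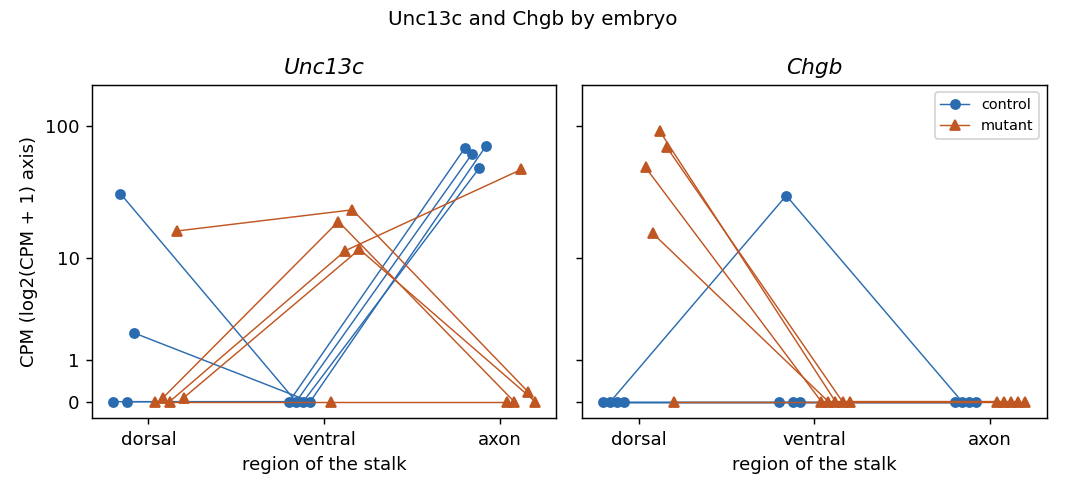
CPM of Unc13c and Chgb in the dorsal, ventral and axon piece of each embryo, on a log2(CPM + 1) axis, with a line joining the 3 pieces of an embryo. Control embryos (blue circles) hold 48.7 to 71.5 CPM of Unc13c in axons and 0 in the ventral piece, and 4 of 5 mutant embryos (orange triangles) hold 15.8 to 92.1 CPM of Chgb in the dorsal piece.

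Chgb (a granin of dense-core granules; chromosome 2, 132781278 to 132795079, plus strand) was measured in 5 of 27 libraries, 4 of them dorsal mutants. The dorsal mutants had 49.5, 15.8, 92.1, 70.0 and 0 CPM, or 539, 265, 1302, 1015 and 0 counts, and the 4 dorsal controls had 0 counts each. One ventral control (replicate 2, described above) had 30.5 CPM. The other 3 ventral controls, the 5 ventral mutants and all 9 axon libraries were at 0. In batch A the dorsal control was at 0 and the 3 mutants at 15.8 to 92.1 CPM, and in batch B the 3 controls were at 0 and the 2 mutants at 70.0 and 0 CPM. A list of 10 further dense-core granule genes went the other way, at 271 to 507 CPM in dorsal controls and 121 to 252 CPM in dorsal mutants. Of these, 7 were tested in edgeR and all 7 had fitted log2 fold changes below 0. Their median was -4.91, against -0.04 over all genes, and 0 were called. The 8 proneural markers summed to 0 to 0.538 CPM in dorsal controls and to 11.9 to 670 CPM in dorsal mutants, and in the mutant without Chgb they summed to 75.6 CPM. In the dorsal pieces the 7 markers of melanin-bearing cells summed to 39.5 to 4691 CPM in controls and to 2931 to 11608 CPM in mutants, the 10 mesenchyme markers to 1159 to 10185 CPM and to 55.6 to 373 CPM, and the 8 endothelial markers to 220 to 415 CPM and to 43.2 to 453 CPM. The 9 optic stalk and astrocyte progenitor markers summed to 749 to 1179 CPM in dorsal controls and to 333 to 729 CPM in dorsal mutants. The progenitor, mesenchyme, proneural and dense-core granule sums did not overlap between dorsal controls and dorsal mutants. The melanin and endothelial sums did. The part of these differences in the Chgb level was not tested.

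Mutants and controls were compared within each region on 9 libraries with edgeR and batch as a term. Calls needed an adjusted p (Benjamini-Hochberg) below 0.05 together with a log2 fold change beyond 0.58 in either direction. By this rule edgeR did not call the deleted gene Smarcc1 in any region. Its log2 fold changes were -1.66 ± 0.99 dorsally, -2.37 ± 0.53 ventrally and -2.46 ± 1.23 in axons (SE). The edgeR adjusted p values were 0.953, 0.999 and 0.880. A gene that was not called may therefore still differ. In the dorsal stalk 0 of 8 members were called, where 0.0124% of all genes tested were called. At an unadjusted p under 0.05 there was 1 member, Chgb, against 5.35% of genes. Its dorsal mutant mean of 45.5 ± 37.9 CPM (SD, n = 5) was at least 264-fold above the controls, taking 3 counts per library as their floor. Of the 5 dorsal mutants 4 held Chgb above 3 counts, and this bound and those below cover counting error only. edgeR gave a log2 fold change of 12.35 ± 3.09 (SE), which rests on controls at 0 and is not a measured fold, with adjusted p = 0.844. The 7 other members had fitted log2 fold changes of -10.55 to 0.82, and the median over the 8 was 0.06 against -0.04 over all genes. DESeq2 called 2 members, Chgb (higher) and Snap25 (lower), where it called 3.3% of genes, and limma voom called none. Without the filter on low counts edgeR called Chgb at an adjusted p of 0.00139, where 0.385% of genes were called. Over the 20 alternatives the adjusted p of Chgb ran from 1.90e-05 to 1.

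In the ventral stalk edgeR called 0 of 8 members and 0.0% of all genes. Unc13c was the 1 member with an unadjusted p under 0.05, which 3.19% of genes had. Its ventral mutants (13.3 ± 9.09 CPM, SD, n = 5) were at least 72.0-fold above the floor of the controls, with 4 of the 5 above 3 counts. The fitted log2 fold change was 11.09 ± 3.55 (SE), with an adjusted p = 0.999. The other 7 members ran from -8.41 to 0.85, and the median over the 8 was -1.12 against -0.08 over all genes. DESeq2 called Unc13c, with 2.12% of genes, and limma voom called 0 members.

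In the axon region 7 members could be tested, since Chgb was at 0 throughout. edgeR called 0 of them and 0.0% of genes, and DESeq2 and limma voom also called 0. The 1 member with an unadjusted p under 0.05 was Syt4, against 3.55% of genes. Syt4 had 5.73 ± 8.0 CPM in axon controls (SD, n = 4), at least 35.3-fold above the floor of the mutants, but 2 of the 4 controls were themselves at 0. Its fitted log2 fold change was -9.75 ± 3.8 (SE), with an adjusted p = 0.880. For Unc13c, the member whose axon groups did not overlap, edgeR gave an adjusted p = 0.880. The median log2 fold change was -2.56 over the 7 members and -0.29 over all genes.

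Exact permutation tests of log2(CPM + 1) that regroup the 9 libraries of a region in every way, with a smallest possible p of 0.00794, gave 3 of 27 results under 0.05. Unc13c was lower in 5 of 5 axon mutants (exact p = 0.0159). Unc13c was higher in 4 of 5 ventral mutants than in any ventral control (exact p = 0.0476), as was Chgb in 4 of 5 dorsal mutants (exact p = 0.0476). All 3 had an adjusted p of 0.429 over the 27 tests and none passed. Mutants and controls did not overlap for 0 of 8 dorsal members, where 2.92% of genes did not overlap, for 0 of 8 ventral members against 1.23%, and for 1 of 7 axon members, Unc13c, against 1.28%.

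Regions were compared within embryos with edgeR on all 27 libraries, with the embryo as a block. Averaged over both genotypes, 0 of 8 members were called between axon and dorsal pieces, where 1.35% of genes were called, and 0 at an unadjusted p under 0.05 against 13.1%. Between axon and ventral pieces these counts were 0 against 0.857% and 0 against 11.8%. Between dorsal and ventral pieces they were 0 against 0.049% and 0 against 4.71%. The members' median log2 difference was -4.31 for axon minus dorsal, against -0.84 over all genes, -1.10 for axon minus ventral, against -0.91, and 1.42 for dorsal minus ventral, against -0.07. The direction of the last was not shared by all members within embryos, since the mean difference of log2(CPM + 1) was -0.48 for Syt1 (higher dorsally in 4 embryos, lower in 5) and -0.59 for Unc13c (higher in 2, lower in 4). Members at 0 in a group take large and poorly determined fitted values. Chgb, for example, had -6.02 ± 16051 (SE) for axon minus dorsal. The members' medians here and in the genotype comparisons are therefore descriptions. DESeq2 called Syt4, Snap25 and Syt1 lower in axon than in dorsal pieces, with 25.9% of genes. It called Syt4 and Syt1 lower and Unc13c higher in axon than in ventral pieces, with 24.8%, and Syt4 and Unc13c higher in dorsal than in ventral pieces, with 7.6%. limma voom called Chgb lower in axon than in dorsal pieces, with 5.17% of genes.

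In controls alone 0 of 8 members were called for axon against dorsal (0.704% of genes), axon against ventral (0.251%) and dorsal against ventral (0.0%). At an unadjusted p under 0.05 the counts were 0 against 6.09%, 1 against 4.51% and 0 against 2.99%. The 1 member was Unc13c, whose axon controls at 62.9 ± 10.2 CPM (SD, n = 4) were at least 340-fold above the floor of the ventral controls. Its fitted log2 difference was 14.19 ± 4.13 (SE), with an adjusted p = 0.541. Axon controls lay above both other regions without overlap for Unc13c, where 4.41% of genes did not overlap against dorsal controls and 3.8% against ventral controls, and for 0 other members. Dorsal and ventral controls overlapped for all 8, against 2.71% of genes without overlap. DESeq2 called Unc13c in the same 3 comparisons, higher in axon than in dorsal pieces (13.1% of genes), higher in axon than in ventral pieces (12.0%) and higher in dorsal than in ventral pieces (6.14%). limma voom called it higher in axon than in ventral pieces, with 0.759% of genes.

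In mutants alone 0 of 8 members were called for axon against dorsal (0.698% of genes), axon against ventral (0.545%) and dorsal against ventral (0.0306%). Members with an unadjusted p under 0.05 numbered 3 against 12.2%, 0 against 11.2% and 1 against 3.71%. Chgb was at least 280.0-fold higher in dorsal than in axon mutants and at least 281.5-fold higher than in ventral mutants, both of which were at 0. Its fitted log2 differences were -11.86 ± 3.53 for axon minus dorsal (SE; adjusted p = 0.270) and 12.05 ± 3.53 for dorsal minus ventral (SE; adjusted p = 1). Syt4 was at least 46.0-fold higher in dorsal than in axon mutants, with a fitted value of -9.68 ± 3.63 (SE; adjusted p = 0.300). Snap25 had -8.36 ± 3.90 (SE; adjusted p = 0.396), but the axon mutant at 72.3 CPM lay above every dorsal mutant. Its fitted difference was 0.54 with the newer edgeR method and 11.11 in batch B alone. No member separated without overlap, against 4.18% of genes for axon and dorsal, 3.43% for axon and ventral and 1.53% for dorsal and ventral mutants. DESeq2 called Syt4, Snap25 and Syt1 (axon below dorsal, 26.3% of genes), Syt4, Syt1 and Unc13c (axon below ventral, 24.1%), and Syt4 and Snap25 (dorsal above ventral, 7.7%). limma voom called Chgb against both regions (5.27% of genes for axon and dorsal, 0.49% for dorsal and ventral) and Syt1 (axon below ventral, 5.23%).

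The mutant effect was then compared between regions within the same fit. edgeR called 0 of 8 members for dorsal against axon (0.0122% of genes), ventral against axon (0.0%) and dorsal against ventral (0.00612%). At an unadjusted p under 0.05 there were 0 against 4.95%, 1 against 3.89% and 2 against 2.29%. The mutant effect on Unc13c was higher in the ventral than in the axon region by 20.79 ± 6.02 on the fitted log2 scale (SE; adjusted p = 1). It was lower in the dorsal than in the ventral region, by -13.06 ± 5.08 (SE; adjusted p = 1). The mutant effect on Chgb was higher in the dorsal than in the ventral region by 15.99 ± 5.80 (SE; adjusted p = 1). These fitted values rest on groups at 0 and give the direction only. DESeq2 called Syt4, Snap25, Syt1 and Unc13c for dorsal against axon (13.0% of genes), Syt4, Syt1 and Unc13c for ventral against axon (13.2%) and Unc13c for dorsal against ventral (5.13%). limma voom called Unc13c for ventral against axon (0.165%).

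Axon mutants had the lowest median number of members above 3 counts per library. Of the 9 members, 4 to 5 were above 3 counts in each axon control (median 4.5) and 0 to 4 in each axon mutant (median 1). The other groups had medians of 5.5 in dorsal controls, 5 in dorsal mutants, 3.5 in ventral controls and 5 in ventral mutants. One axon mutant had 0 counts for all 9 members. The summed level was 107 to 151 CPM in axon controls and 0 to 72.7 CPM in axon mutants. Unc13c alone made 48.7 to 71.5 CPM of the sum in each axon control. Axon mutants also had fewer genes with a count in all. Over the 5585 tested genes whose mean level spans that of the 8 tested members (3.05 to 25.4 CPM), 51.9% of values were above 3 counts in axon controls and 36.7% in axon mutants, against 56.2% and 20% for the members. Over all 27 libraries 51.4% of the members' values and 58.7% of those genes' values were above 3 counts, so that patchy detection was common at these levels.

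**Figure D3:**
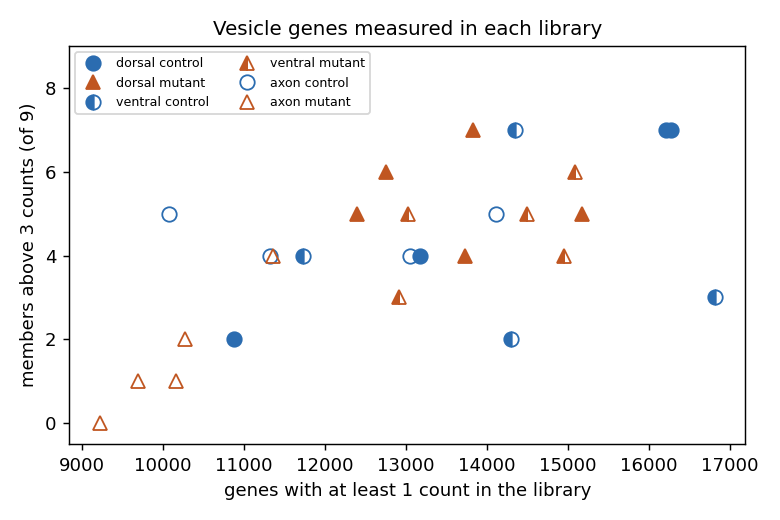
Members above 3 counts in each library (y axis, of 9) against the number of genes with at least 1 count in that library (x axis), with a symbol for each region and genotype. The 5 axon mutants (open triangles) lie at 9225 to 11358 genes and 0 to 4 members, and the axon controls (open circles) at 10076 to 14118 genes and 4 to 5 members.

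A wider set of 64 vesicle genes was read in the same fits, of which 51 were tested. It covered SNARE partners (9 of 10 tested), synaptotagmins (5 of 10), vesicle membrane and surface proteins (15 of 18), active zone proteins (9 of 10), endocytosis proteins (6 of 6) and dense-core granule proteins (7 of 10). In the genotype comparisons edgeR called 0 of them. At an unadjusted p under 0.05 there were 1 higher and 4 lower of 50 in dorsal mutants (5.35% of all genes in either direction), 0 higher and 3 lower of 50 in ventral mutants (3.19%), and 1 higher and 3 lower of 47 in axon mutants (3.55%). The lower dorsal genes were 2 of the granule list and 2 of the vesicle membrane list. The wider set's median log2 fold change was -1.18 dorsally, -1.28 ventrally and -2.52 in axons, against -0.04, -0.08 and -0.29 over all genes. The lists were not alike. The vesicle membrane list had medians of 0.47 dorsally (9 genes above 0 and 5 below), -2.11 ventrally (2 and 12) and 0.19 in axons (6 and 6). Patchy genes at 0 in one group take large fitted values, so these medians are descriptions. In axon pieces the SNARE partners had a median sum of 669 CPM in controls (462 to 1023 CPM) and 763 CPM in mutants (259 to 988 CPM). Their mean sums went the other way, at 706 and 614 CPM. All 9 tested SNARE partners had fitted log2 fold changes below 0 in axon mutants (median -3.02). One gene of this list, Cplx2, had 162 to 860 CPM in axon controls. For the vesicle membrane list the median sums in axon pieces were 239 CPM in controls and 278 CPM in mutants. The other lists had a lower median sum in axon mutants than in axon controls.

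Between regions edgeR called 2 genes of the wider set. Over both genotypes it called 1 of 51 higher for axon against dorsal, where 1.35% of all genes were called. For axon against ventral it called 1 higher and 1 lower of 51 (0.857% of all genes). In controls alone it called 1 of 51 for axon against dorsal (0.704%). Cplx2 (complexin 2, which clamps and promotes SNARE-driven fusion) was high in all 9 axon libraries, at 522, 499, 860 and 162 CPM in controls and 672, 249, 764, 527 and 181 CPM in mutants. Dorsal libraries had 0.0590 to 43.9 CPM and ventral libraries 14.4 to 221 CPM. The axon pieces exceeded the dorsal pieces by a log2 difference of 6.02 ± 0.99 (SE; edgeR adjusted p = 0.00119) and the ventral pieces by 3.66 ± 0.85 (SE; adjusted p = 0.0357). In controls alone the axon minus dorsal difference was 7.73 ± 1.62 (SE; adjusted p = 0.0236). Between genotypes within the axon region Cplx2 differed by -0.32 ± 0.53 (SE; adjusted p = 0.977). Its axon against ventral call was lost without any of 7 single embryos (adjusted p of 0.0587 without control replicate 2 to 0.159 without control replicate 1), and the axon against dorsal call in controls was lost without control replicate 1, 2 or 3 (0.0666 to 0.187). In batch B alone the axon against dorsal call over both genotypes was lost too (adjusted p = 0.269), the highest of its 18 alternatives.

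**Figure D4:**
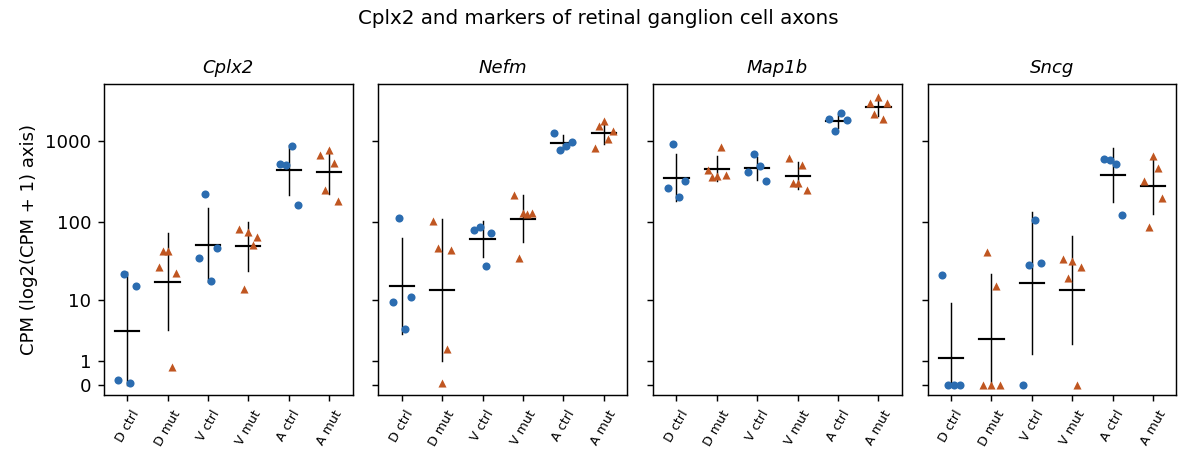
CPM of Cplx2 and of 3 markers of retinal ganglion cell axons (Nefm, Map1b and Sncg) in each library, on a log2(CPM + 1) axis, for dorsal (D), ventral (V) and axon (A) pieces of control (blue circles) and mutant (orange triangles) embryos. Bars give the mean and SD of log2(CPM + 1), drawn down to 0 at most. Cplx2 has 162 to 860 CPM in the 9 axon libraries and at most 43.9 CPM in the 9 dorsal libraries.

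Sh3gl2 (endophilin A1, a protein of vesicle endocytosis) was the one called lower in axon than in ventral pieces (log2 difference -10.79 ± 2.17, SE; adjusted p = 0.0217). Ventral controls had 54.4, 7.93, 4.69 and 31.1 CPM and ventral mutants 27.5, 26.6, 0, 0.0697 and 14.9 CPM, and of the 9 axon libraries 1 control had 7.97 CPM and the other 8 were at 0. This call was lost without any of 7 single embryos, at adjusted p of 0.0708 without control replicate 3 to 0.167 without control replicate 2.

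Members were weakly related to each other across libraries. Over the 28 pairs of the 8 tested members, Pearson's r of log2(CPM + 1) over the 27 libraries ran from -0.25 to 0.50 with a median of 0.11, and 22 pairs were above 0. The highest was between Syt4 and Sv2a. The libraries share embryos and differ in the number of genes detected, so these values are descriptions.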

How the data were processed

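RNA of 27 laser-captured pieces (dorsal, ventral and axon region of 9 embryos) was sequenced by Geo-seq, which amplifies RNA by PCR without molecular identifiers, so floors cover counting error only. The authors aligned reads to mm10 with STAR and made raw gene counts with HTSeq in the Seq2Science workflow. The deposited counts were used as they stand. Tool versions, annotation release and strand setting are not given in the sources used here, so reads of overlapping genes cannot be told apart. Salmon is also listed in the submitters' processing notes.

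Of 55487 gene identifiers 55227 matched a mouse symbol, and the 260 others held 0.00287% of counts. Libraries held 10899418 to 33980417 counts (median 16774072). The 16330 genes above 10 counts in 3 or more libraries were fitted in edgeR 4.0.16 (R 4.3.3) with TMM scaling and the robust quasi-likelihood test. Genotypes were compared within a region on 9 libraries with batch as a term. Regions and the interaction were fitted on all 27 libraries with the embryo as a block, since the 3 pieces of an embryo carry its number. Same-embryo libraries correlated by -0.02 to 0.11 in their deviations from group means. Single genes were also tested on log2(CPM + 1) by exact permutation, two-sided, over 126 splits or 512 sign flips, with Benjamini-Hochberg adjustment over 27 tests. A gene at or below 3 counts in every library of a group has a fold given as a lower bound against 3 counts per library. DESeq2 1.42.0 and limma 3.58.1 (voom) were alternatives, with other scalings, filters, batches and left-out embryos. DESeq2 was the study's own test, and its methods give the same cutoffs and a like filter on low counts. The scripts were also run on simulated counts, in which the changed genes had higher mean levels than most members. That run does not show how the tests perform on genes as low and patchy as the members.

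The named genes were the 9 members (with a fold change where edgeR gave an unadjusted p under 0.05), Smarcc1, members of the wider vesicle lists that edgeR called in a comparison, and marker genes. A ranking of genes by their likeness to the members' mean is not reported here. The members and lists were chosen with earlier results of these data known. Gene positions are those of GENCODE M21 on mm10.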

Additional observations from a re-analysis of the deposited data

Results flagged for a closer look

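In 20 of the 54 groups of a member's levels, the highest library stood apart from the others of its group by Dixon's test at the 95% level. The 54 include groups that were not tested, with every library at 0 or none above 3 counts, so the share among tested groups was higher. Chance alone sets a library apart in about 1 of 20 tested groups. In a group where all other libraries are at 0 any library above 3 counts stands apart.

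For the SNARE genes, Snap25 had 324 CPM in dorsal control replicate 3 (next highest 47.5 CPM), 11.6 CPM in ventral mutant replicate 4 (next 3.0 CPM) and 72.3 CPM in axon mutant replicate 4 (next 0). Vamp2 had 22.7 CPM in axon mutant replicate 3 (next 6.34 CPM). For the synaptotagmins, Syt1 had 56.9 CPM in axon mutant replicate 5 (next 0). Syt4 had 309 CPM in ventral control replicate 2 (next 0) and 0.429 CPM in ventral mutant replicate 5 (next 0). Syt11 had 0.208 CPM, or 5 counts, in dorsal control replicate 1 (next 0).

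For the vesicle membrane proteins, Syp had 26.6 CPM in dorsal mutant replicate 1 (next 5.05 CPM), 2.46 CPM in ventral mutant replicate 1 (next 0.558 CPM), 12.4 CPM in axon control replicate 3 (next 1.28 CPM) and 26.0 CPM in axon mutant replicate 2 (next 5.37 CPM). Sv2a had 13.9 CPM in dorsal mutant replicate 5 (next 1.28 CPM), 10.3 CPM in ventral control replicate 2 (next 0), 13.3 CPM in ventral mutant replicate 1 (next 3.13 CPM) and 4.04 CPM in axon mutant replicate 5 (next 0). Unc13c had 31.6 CPM in dorsal control replicate 2 (next 2.15 CPM), 16.4 CPM in dorsal mutant replicate 4 (next 0.0665 CPM) and 47.8 CPM in axon mutant replicate 3 (next 0.175 CPM). Chgb had 30.5 CPM in ventral control replicate 2 (next 0). That ventral control was the only library set apart in 3 members, Syt4, Sv2a and Chgb.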

How the results depend on the processing

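The edgeR count of 0 called members held in all 15 comparisons with DESeq2's size factors, with the newer edgeR method, without mitochondrial genes, in either batch alone and with each of the 9 embryos left out (0 to 0 members, lowest adjusted p 0.203 to 0.435), and where they applied with 1 genotype alone, without the batch term and with all 27 libraries. Adding the replicate number as a block to the genotype comparisons also gave 0 (lowest adjusted p 0.917), and so did dropping the replicate block from the region comparisons (0.0996). The replicate numbers do not pair controls with mutants (correlations of -0.05 to 0.03).

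DESeq2 called 4 members for the mutant effect in dorsal against axon. It called 3 for axon against dorsal and axon against ventral, over both genotypes and in mutants, and for the mutant effect in ventral against axon. It called 2 for dorsal against ventral over both genotypes and in mutants, and for the dorsal genotype comparison. It called 1 for the 3 comparisons in controls, the ventral genotype comparison and the mutant effect in dorsal against ventral, and 0 for the axon genotype comparison. limma voom called 1 in each of 6 comparisons, and edgeR without a filter 1 (Chgb, dorsal). The cause was not tested. DESeq2 made 30 such calls in all and limma voom 6.

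Of 209 alternatives of the printed fold changes 207 kept their direction. The other 2 were of Snap25 for axon minus dorsal mutants, 0.54 with the newer edgeR method and 11.11 in batch B alone, against -8.36. No exact test passed adjustment with a pseudocount of 0.1, or with TMM-scaled CPM, which was chosen after seeing the data. Cplx2 was called in 17 of 18 alternatives for axon against dorsal, in 12 of 19 for the same in controls (adjusted p 4.60e-11 to 0.668) and in 6 of 18 for axon against ventral (2.68e-06 to 0.676), and Sh3gl2 in 7 of 18 (4.65e-05 to 0.756). The many libraries at 0 limit every fold to a bound or a wide interval.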
